A study of Mus musculus with 8 samples.

Results

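Immediate early genes are switched on within minutes when a cell is stimulated or stressed, without new protein synthesis, and their products then set the second wave of transcription. Several of them encode AP-1, a transcription factor made of a FOS or ATF protein paired with a JUN protein. In bone-forming cells AP-1 is known to act in the response to load and to parathyroid hormone, and in many tissues the same genes are known to be induced while cells are being freed by enzymes. Here 33 such genes, listed by symbol, were followed in sorted mouse osteoblasts. All 33 were among the 21154 genes of the deposited count table, and 32 of them were among the 15373 genes with enough counts to be tested. The remaining one, Fosl1, which encodes a FOS family protein, had 3 counts in DOX replicate 5, 25 counts in PBS replicate 1 and 0 in the other 6 libraries.

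The cells came from female Col2.3-GFP mice, in which a fragment of the Col1a1 promoter drives green fluorescent protein in cells that make bone matrix. The DOX mice had 4 weekly intravenous doses of the anthracycline doxorubicin at 5 mg/kg (5 libraries), and the controls had phosphate-buffered saline, PBS, on the same schedule (3 libraries). Treatment began in mice of 8 to 10 weeks, and bone was taken 8 weeks after treatment, freed of marrow by centrifugation, digested at warm temperature and sorted for GFP. DOX replicates 1 and 2 and PBS replicate 1 belonged to batch 1, and DOX replicates 3 to 5 and PBS replicates 2 and 3 to batch 2. The labels do not say what set the batches apart. The titles call the libraries biological replicates, but no label ties a library to an animal. For DOX replicate 1 the title says DOX and the treatment tag says PBS. It was counted as DOX, and several treatment counts of the members are also given without it and with it as PBS. Treatment values with no other reading beside them count it as DOX.

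Library totals ran from 39419027 to 44151882 counts in DOX and from 40985302 to 44299591 in PBS. Values are CPM, the usual depth-scaled counts, with library sizes adjusted by the TMM method. The osteoblast label held in every library: the 2 type I collagen genes took 23.2% to 35.5% of counts in DOX and 19.1% to 39.5% in PBS, and the osteocalcin gene Bglap stood between 13192 and 24500 CPM. PBS replicate 1 and DOX replicate 1 had the lowest collagen shares. The 33 genes together took 0.786%, 0.525%, 0.317%, 0.357% and 0.458% of counts in DOX replicates 1 to 5, against 0.567%, 0.287% and 0.251% in PBS replicates 1 to 3. The 3 batch 1 libraries held the 3 highest shares, whichever group they came from, and the DOX and PBS ranges overlapped.

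Between DOX and PBS osteoblasts none of the immediate early genes passed the test. EdgeR's quasi-likelihood test, with batch and group as terms, called 0 of the 32, against 0% of all genes tested, with an adjusted p of 0.995 for all of them. At an unadjusted p under 0.05 it listed 3 members, Atf3, Fos and Ier3, against 3.71% of all genes tested. That count was 2 without DOX replicate 1 (466 of 14903 genes listed) and 1 with that library counted as PBS (306 of 14622). Leaving out 1 library in turn moved it between 1, without DOX replicate 5 (416 of 15152), and 10, without DOX replicate 2 (1572 of 15167). It was 8 without DOX replicate 4 (379 of 15056 genes listed) and 6 without DOX replicate 3 (525 of 15207). It was 5 without PBS replicate 1 (1084 of 15953), and 2 without PBS replicate 2 (571 of 16453) or PBS replicate 3 (501 of 16432). All 3 had positive fold changes, against 1.98% of all genes, and none a negative one, against 1.74%. DESeq2 called 0 of 33 members, against 0.123% of all genes. For none of the 32 did every DOX library lie above every PBS library, against 1.24% of all genes, or below, against 1.19%. Of the 32 genes 26 had a positive log2 fold change, against 53% of all genes tested, and the median was 0.20, against 0.02 over all genes. Without DOX replicate 1 the count was 24 and the median 0.22, and with that library counted as PBS they were 21 and 0.12. In sorted bulk cells, fewer cells of a type and less RNA per cell cannot be told apart.

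Most members had lower values in batch 2 than in batch 1, though few passed the test. In the same model 27 of the 32 had a negative log2 fold change of batch 2 over batch 1, against 51.6% of all genes tested, with a median of -0.75, against -0.02 over all genes. The other 5, Klf4, Dusp2, Ccn1, Klf2 and Nr4a2, had values between 0.02 and 0.31. Nr4a1 and Dusp1 passed as lower in batch 2, which makes 2 of 32, against 0.0585% of all genes tested, and no member passed as higher, against 0.0325% (0.0911% in both directions). A further 16 had an unadjusted p under 0.05 in that direction, for 18 in all, against 7.79% of all genes tested. For 11 of the 32 every batch 2 library lay below every batch 1 library, against 4.38% of all genes, and for none did every batch 2 library lie above, against 4.89%. The calls changed when 1 library was left out. EdgeR called 0 members without any one of DOX replicate 1, DOX replicate 3 and the 3 PBS libraries. It called 12 without DOX replicate 2, where 6.18% of all genes were called. DESeq2, added after the data were seen, called 14 of 33 members lower in batch 2, against 2.45% of all genes, limma-voom called 1 of 32, against 0.0976%, and edgeR without a filter 4 of 33, against 0.0898%. The median was -0.50 without PBS replicate 1 and -0.38 with both PBS replicate 1 and DOX replicate 1 left out.

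**Figure D1:**
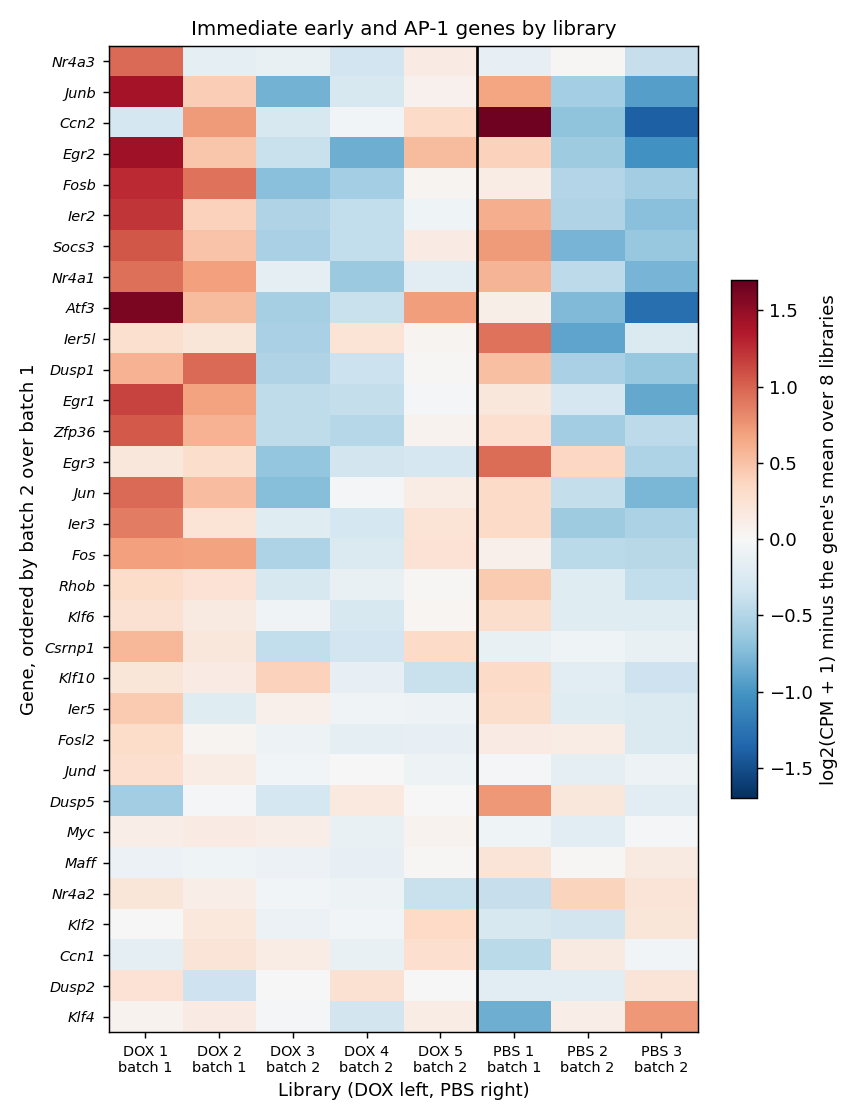
Level of the 32 tested genes (rows, ordered by the batch 2 over batch 1 fold change) in each of the 8 libraries (columns, DOX left and PBS right). Colour gives log2(CPM + 1) minus the gene's mean over the libraries. Most upper rows are red in DOX replicates 1 and 2 and, for most genes, in PBS replicate 1, the 3 libraries of batch 1, and mostly blue in the batch 2 libraries.

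Of the 32 genes 26 had their highest value in a batch 1 library, against 49.2% of all genes tested, and 27 their lowest in a batch 2 library, against 52.2%. DOX replicate 1 was highest for 17, a library that was highest for 22.3% of all genes. PBS replicate 3 was lowest for 13, against 15% of all genes. The mean log2 CPM of the 32 genes was 5.60, 5.30, 4.68, 4.72 and 5.09 in DOX replicates 1 to 5, against 5.28, 4.69 and 4.51 in PBS replicates 1 to 3. DOX replicate 5 was the highest of the batch 2 libraries on this score, and PBS replicate 1 the lowest of batch 1.

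Among the FOS genes, Fos itself, whose protein is the classical partner of JUN, was the most abundant member per length after Ccn1. Its level was 415 ± 149 CPM per kilobase of exon in DOX (SD, n = 5) and 291 ± 67.8 in PBS (SD, n = 3). In whole-gene CPM it stood at 1335, 1316, 569, 692 and 969 in DOX replicates 1 to 5, against 868, 594 and 589 in PBS replicates 1 to 3. DOX replicates 1, 2 and 5 lay above every PBS library and DOX replicate 3 below every one, so the groups overlapped. The log2 fold change of DOX over PBS was 0.43 ± 0.18 (SE; 95% interval 0.03 to 0.82), with an adjusted p of 0.995 in edgeR. Fosb, a close relative of Fos that is spliced to a truncated form as well, had 158 and 125 CPM in DOX replicates 1 and 2 and 39.3 to 67.5 CPM in DOX replicates 3 to 5, against 71.1 CPM in PBS replicate 1 and 45.8 and 43.0 CPM in PBS replicates 2 and 3. All 5 batch 2 libraries lay below all 3 batch 1 libraries for Fosb (log2 fold change of batch 2 over batch 1 -1.22 ± 0.22, SE; adjusted p = 0.0829 in edgeR). Fosl2, a FOS relative with a known role in osteoblast differentiation, varied little, between 17.3 and 24.1 CPM in DOX and between 16.1 and 21.2 CPM in PBS. Per length Fosl2 stood at 2.00 ± 0.300 CPM per kilobase in DOX (SD, n = 5) and 2.01 ± 0.303 in PBS (SD, n = 3), so Fos was far above it in both groups.

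The JUN genes encode the partners that AP-1 cannot do without. Jun had 251, 186, 77.5, 126 and 140 CPM in DOX replicates 1 to 5, against 161, 96.8 and 74.4 CPM in PBS replicates 1 to 3. Its log2 fold change of DOX over PBS was 0.43 ± 0.20 (SE; 95% interval -0.02 to 0.88; adjusted p = 0.995 in edgeR). Within each batch the DOX libraries lay mostly above the PBS libraries, and across batches the groups overlapped. Junb, whose protein can take the place of JUN and is known to be needed for bone formation in mice, had 292 and 146 CPM in DOX replicates 1 and 2 and 62.3, 90.3 and 115 CPM in DOX replicates 3 to 5, against 174 CPM in PBS replicate 1 and 72.6 and 56.7 CPM in PBS replicates 2 and 3. Both genes had every batch 2 library below every batch 1 library, with a batch 2 over batch 1 log2 fold change of -0.92 ± 0.20 for Jun and -1.34 ± 0.24 for Junb (SE; adjusted p = 0.123 and 0.0829 in edgeR). Jund, the JUN gene known to be expressed steadily rather than in bursts, ran only from 72.0 to 93.7 CPM in DOX and from 68.7 to 74.7 CPM in PBS, and its batch fold change was -0.20 ± 0.11 (SE). In exon models of an earlier genome build Junb shares exon sequence with Prdx2 on the opposite strand, and so do Jun, Jund, Zfp36, Ccn2, Dusp1 (with Ergic1), Csrnp1, Dusp5 and Fosl1 with other genes. The kit does not mark strand, so reads of these 9 members and of their partners cannot be told apart there.

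Atf3, which encodes a stress-induced partner and repressor in AP-1, had the largest positive fold change of DOX over PBS and the smallest p among the tested members. It stood at 72.8, 34.2, 15.4, 17.7 and 38.8 CPM in DOX replicates 1 to 5, against 25.1, 13.4 and 9.0 CPM in PBS replicates 1 to 3. Every DOX library lay above every PBS library of its own batch, which held for 2 of the 32 members (Atf3 and Dusp1), against 3.36% of all genes tested (below for none, against 2.89%), while across batches DOX replicates 3 and 4 lay below PBS replicate 1. The log2 fold change was 1.10 ± 0.34 (SE; 95% interval 0.33 to 1.86), with an adjusted p of 0.995 in edgeR (0.271 in DESeq2). It ran from 0.77 without DOX replicate 5 to 1.25 without PBS replicate 2, and was 0.55 with DOX replicate 1 counted as PBS. The difference of mean log2(CPM + 1) was 0.97 within batch 1 and 0.94 within batch 2. Maff, which encodes a small MAF protein that can pair with FOS proteins, stayed between 1.15 and 1.42 CPM in DOX and between 1.42 and 1.76 CPM in PBS.

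**Figure D2:**
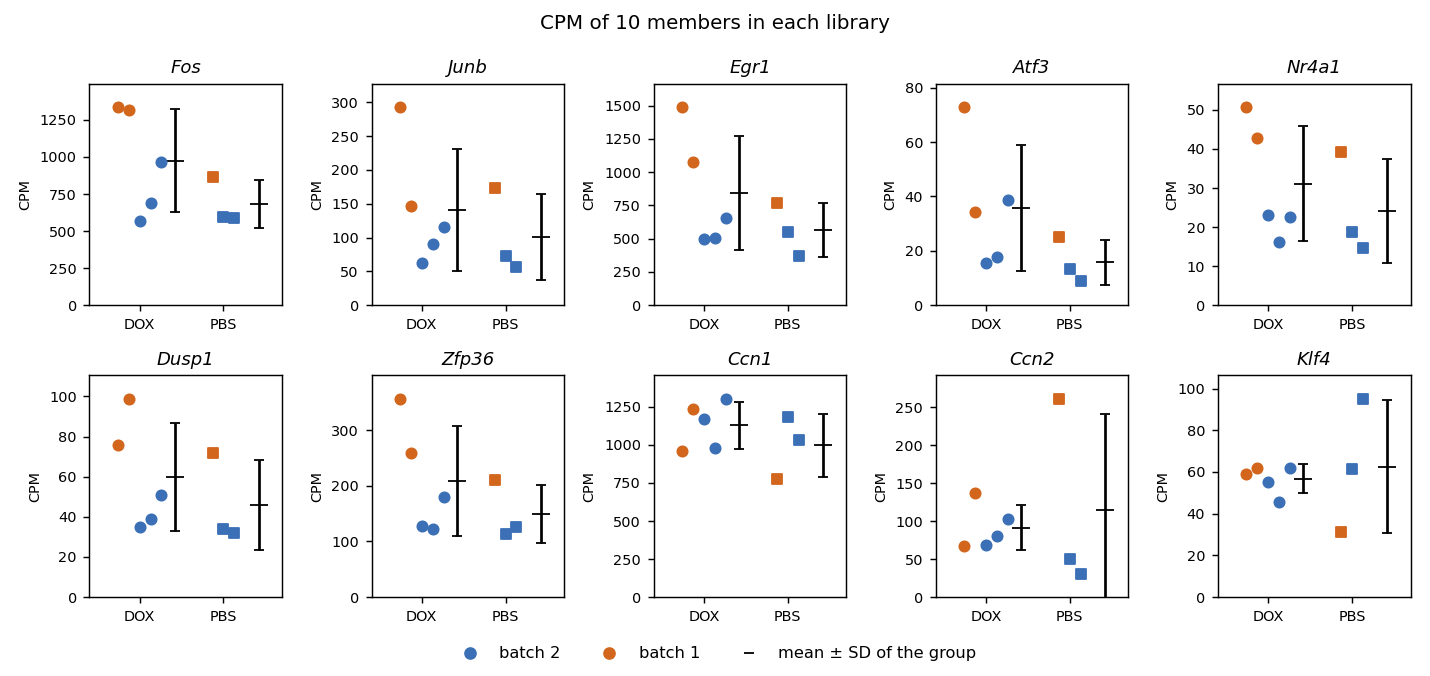
CPM of 10 of the genes in each library, with DOX circles left of PBS squares, batch 2 in blue and batch 1 in orange, and bars for the group mean ± SD (n = 5 DOX, n = 3 PBS; the lower bar for Ccn2 in PBS is cut at 0). For Junb, Egr1, Nr4a1, Dusp1 and Zfp36 every orange point lies above every blue one, while Ccn1 and Klf4 show no such split and Ccn2 is highest in PBS replicate 1.

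The EGR genes encode zinc finger factors that are induced beside Fos by the same growth factor signals. Egr1 had 1488, 1080.0, 499, 506 and 659 CPM in DOX replicates 1 to 5, against 772, 553 and 367 CPM in PBS replicates 1 to 3. The 3 batch 1 libraries were the highest and the groups overlapped. The log2 fold change of DOX over PBS was 0.43 ± 0.20 (SE; 95% interval -0.01 to 0.87; adjusted p = 0.995 in edgeR), and that of batch 2 over batch 1 was -1.05 ± 0.19 (SE; adjusted p = 0.0829). Egr2 had 47.4, 23.6, 12.7, 9.03 and 24.7 CPM in DOX replicates 1 to 5, against 22.4, 10.7 and 7.67 CPM in PBS replicates 1 to 3, with 0.72 ± 0.33 for DOX over PBS (SE; 95% interval -0.02 to 1.46; adjusted p = 0.995 in edgeR). Egr3 went the other way in sign: it had 3.74, 4.07, 1.62, 2.33 and 2.39 CPM in DOX replicates 1 to 5, against 6.98, 4.28 and 1.87 CPM in PBS replicates 1 to 3. Its fold change of -0.65 ± 0.30 was the lowest of the tested members (SE; 95% interval -1.33 to 0.03; adjusted p = 0.995 in edgeR), and the groups overlapped.

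The orphan nuclear receptors of the NR4A family need no ligand and are controlled by how much of them is made. Nr4a1, known as NUR77, had 50.7, 42.8, 23.1, 16.3 and 22.6 CPM in DOX replicates 1 to 5, against 39.2, 18.7 and 14.5 CPM in PBS replicates 1 to 3. It was lower in batch 2, at 19.1 ± 3.80 CPM (SD, n = 5), than in batch 1, at 44.2 ± 5.85 CPM (SD, n = 3), with a log2 fold change of -1.20 ± 0.15 (SE; adjusted p = 0.0334 in edgeR), and all 5 batch 2 libraries lay below all 3 batch 1 libraries. The DOX over PBS fold change was 0.29 ± 0.16 (SE). Nr4a2, a relative known as NURR1, had 39.4, 37.0, 33.1, 32.1 and 26.01 CPM in DOX replicates 1 to 5, against 25.7, 44.9 and 40.1 CPM in PBS replicates 1 to 3, and a batch fold change of 0.02 ± 0.20 (SE). Nr4a3 was close to undetected, with 77 counts in DOX replicate 1 and 2 to 18 in the other DOX libraries, against 10, 12 and 0 in the PBS libraries.

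Several members encode proteins that end the early response. Dusp1, which encodes a phosphatase that switches off MAP kinases, had 76.0, 98.6, 35.1, 38.7 and 50.8 CPM in DOX replicates 1 to 5, against 71.8, 34.0 and 31.7 CPM in PBS replicates 1 to 3. It was lower in batch 2, at 38.0 ± 7.54 CPM (SD, n = 5), than in batch 1, at 82.1 ± 14.4 CPM (SD, n = 3), with a log2 fold change of -1.09 ± 0.15 (SE; adjusted p = 0.0334 in edgeR). For DOX over PBS it was 0.32 ± 0.15 (SE; 95% interval -0.02 to 0.65; adjusted p = 0.995 in edgeR). Zfp36, which encodes tristetraprolin, a protein that destroys short-lived mRNAs, had 356, 260, 128, 123 and 180 CPM in DOX replicates 1 to 5, against 210.2, 114 and 126 CPM in PBS replicates 1 to 3. Socs3, an inhibitor of cytokine signalling, had 228, 154, 74.5, 81.2 and 120 CPM in DOX, against 182, 63.0 and 69.4 CPM in PBS. Both had every batch 2 library below every batch 1 library, with batch fold changes of -0.998 ± 0.17 for Zfp36 and -1.20 ± 0.19 for Socs3 (SE; adjusted p = 0.0802 and 0.0614 in edgeR). The other phosphatase genes were rare: Dusp2 had 1.31 to 2.52 CPM in DOX and 1.58 to 2.43 CPM in PBS, and Dusp5 had 1.25 to 2.82 CPM in DOX and 2.01 to 4.67 CPM in PBS.

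The IER genes encode small early response proteins. Ier3, which is linked to cell survival, had 55.8, 35.6, 26.1, 24.4 and 35.8 CPM in DOX replicates 1 to 5, against 38.1, 19.5 and 20.5 CPM in PBS replicates 1 to 3. Its log2 fold change of DOX over PBS was 0.43 ± 0.18 (SE; 95% interval 0.02 to 0.84), with an adjusted p of 0.995 in edgeR, and the groups overlapped. Ier2 ranged from 42.8 to 144 CPM in DOX and from 37.2 to 94.7 CPM in PBS, with every batch 2 library below every batch 1 library (batch fold change -1.21 ± 0.18, SE; adjusted p = 0.0546 in edgeR). Ier5 had 10.9 to 17.6 CPM in DOX and 10.5 to 15.8 CPM in PBS, Ier5l 0.886 to 2.34 CPM in DOX and 0.491 to 4.26 CPM in PBS, and Csrnp1, which encodes a nuclear factor induced by axin, 4.26 to 9.39 CPM in DOX and 5.42 to 5.70 CPM in PBS. Myc, the growth-promoting factor, was among the steadiest: it had 60.5 to 73.4 CPM in DOX and 57.9 to 64.4 CPM in PBS, its DOX over PBS fold change was 0.16 ± 0.11 (SE), and its batch fold change was -0.09 ± 0.11 (SE).

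Krüppel-like factors and secreted products showed other patterns. Klf2, a factor known for its response to fluid flow, had 111 to 150.1 CPM in DOX and 95.2 to 137 CPM in PBS, and Klf10, a gene induced by TGF-beta, 60.2 to 103 CPM in DOX and 61.3 to 98.3 CPM in PBS. Klf6 had 86.8 to 126 CPM in DOX and 91.0 to 129 CPM in PBS, with every batch 2 library below every batch 1 library (batch fold change -0.37 ± 0.12, SE; adjusted p = 0.230 in edgeR). Klf4 stood at 59.0, 62.1, 55.2, 45.5 and 61.9 CPM in DOX replicates 1 to 5, against 31.4, 61.4 and 94.9 CPM in PBS replicates 1 to 3, so the PBS libraries spanned the whole DOX range. Ccn1, which encodes the matricellular protein CYR61 that binds integrins, was the most abundant member per length, at 559 ± 75.7 CPM per kilobase in DOX (SD, n = 5) and 494 ± 102 in PBS (SD, n = 3). It had 777 to 1301 CPM over the 8 libraries, with the lowest value in PBS replicate 1, and its batch fold change was 0.22 ± 0.16 (SE). Ccn2, which encodes the related connective tissue growth factor, had 66.7, 137, 67.9, 80.0 and 103 CPM in DOX replicates 1 to 5, against 260.4, 50.7 and 30.9 CPM in PBS replicates 1 to 3. Rhob, which encodes a small GTPase of the cytoskeleton, had 8.32 to 12.9 CPM in DOX and 7.42 to 14.4 CPM in PBS, with every batch 2 library below every batch 1 library.

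**Figure D3:**
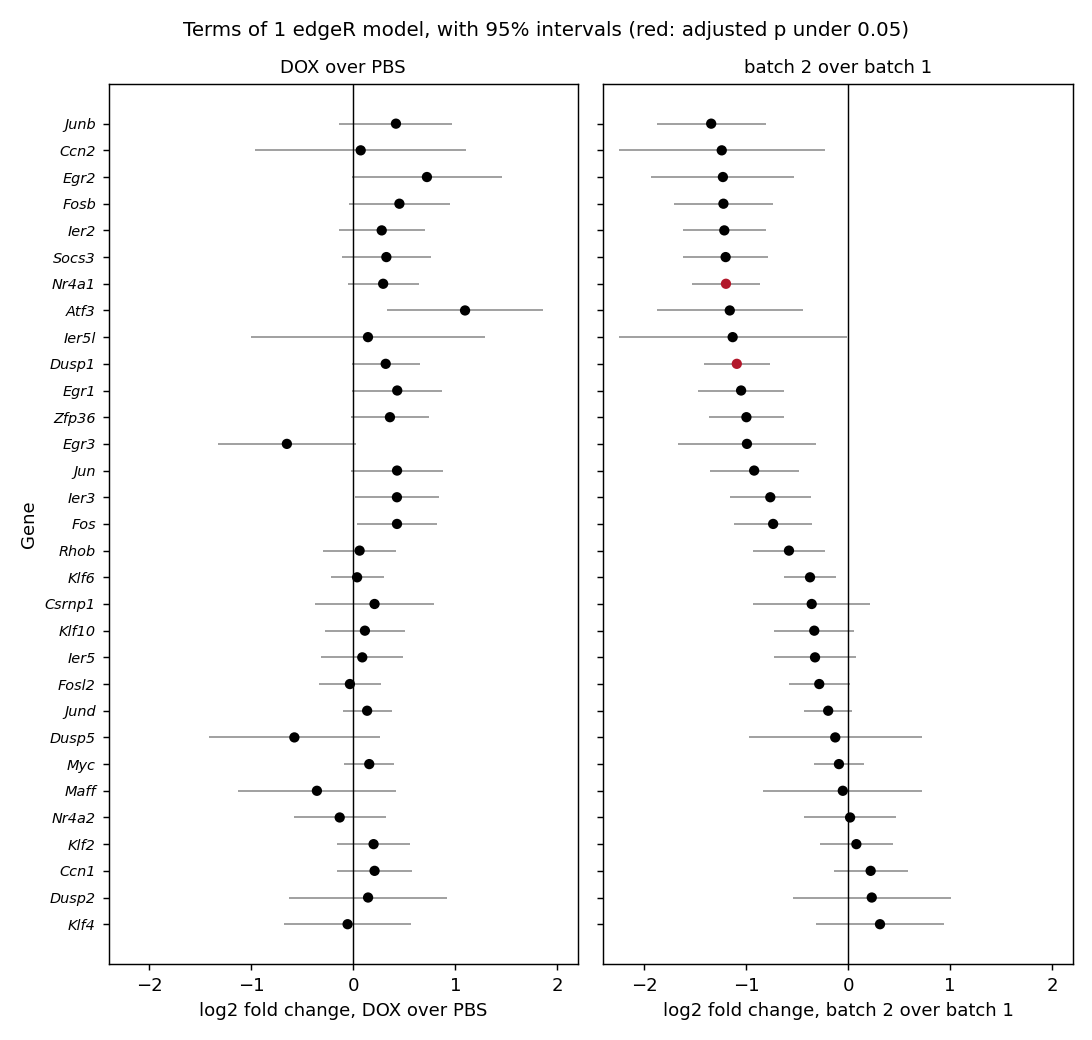
Log2 fold changes of DOX over PBS (left) and of batch 2 over batch 1 (right) from 1 edgeR model for 31 of the tested genes (Nr4a3, with few counts, is left out), with 95% intervals. Red marks an adjusted p under 0.05, which Nr4a1 and Dusp1 reached for batch and no gene reached for treatment.

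The treatment difference was also taken within each batch. The DOX minus PBS difference of mean log2(CPM + 1) was positive in both batches for 19 of the 32, against 23.3% of all genes tested, and negative in both for 3, against 20.2%. It was positive in batch 1 and negative in batch 2 for 4, against 27.9% of all genes, and the reverse for 6, against 28.5%. Without DOX replicate 1 it was positive in both batches for 13, against 18.4% of all genes, and with that library counted as PBS for 9, against 17.8%. It was negative in both for 4 and 5 under these readings, against 17.7% and 17.3%. The count of members with every DOX library above the PBS libraries of its own batch was 2 without DOX replicate 1, against 4.51% of all genes, and 1, Dusp1, with it as PBS, against 2.3%. Batch 1 holds 1 PBS library, so its differences all rest on PBS replicate 1. A model with an interaction of group and batch called 0 of the 32 in edgeR, against 0% of all genes, and listed 3 at an unadjusted p under 0.05, Ccn2, Nr4a2 and Klf4, against 11.7% of all genes. For Ccn2 the difference was -1.43 in batch 1 and 1.04 in batch 2 (interaction adjusted p = 0.209 in edgeR), and without DOX replicate 2 the interaction passed, at 3.00 on the log2 scale (adjusted p = 0.0443 in edgeR), in a fit that called 58 of 15167 genes. For Klf4 the differences were 0.93 in batch 1 and -0.50 in batch 2, and for Nr4a2 0.55 and -0.48 (adjusted p = 0.230 and 0.238 in edgeR).

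**Figure D4:**
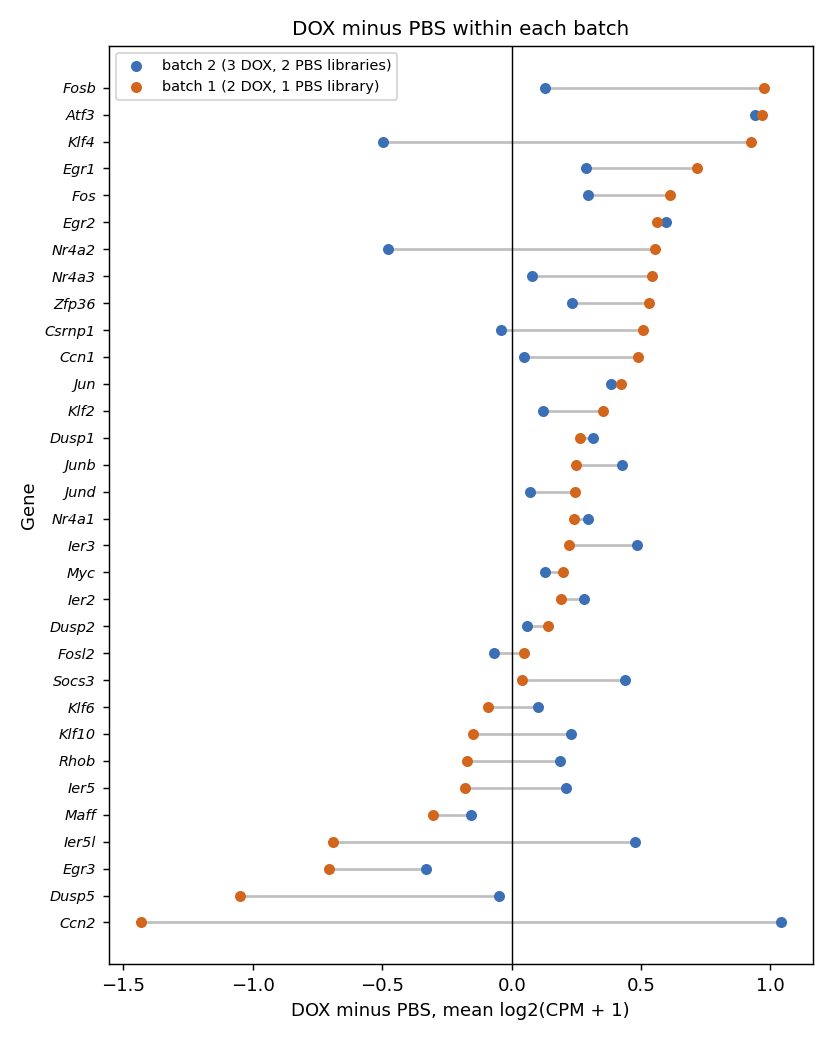
DOX minus PBS difference of mean log2(CPM + 1) within batch 2 (blue; 3 DOX and 2 PBS libraries) and batch 1 (orange; 2 DOX libraries and 1 PBS library) for the 32 tested genes. For 19 genes both points lie right of 0, Atf3 having nearly equal values of 0.97 and 0.94, and for 3 both lie left. For 4 genes only the batch 1 point lies right of 0, and for 6 only the batch 2 point. Ccn2, Klf4 and Nr4a2 are among those with points on both sides.

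The promoters of 26 members were matched in RefSeq windows of 300 bases on GRCm38.p6, an earlier mouse build than that of the counts. Shown are Nr4a1 and Dusp1, which passed for batch, Fos, the most abundant AP-1 gene, and Ccn1, the abundant member with no such drop in batch 2. Each runs 5′ to 3′ from 250 bases before the annotated start to 50 bases after it. Capitals mark TGACG, the core of the cAMP response element, read as CGTCA on the other strand, the full element TGACGTCA, which contains it, and TATAAA.
Nr4a1 (chr15:101266596-101266895, plus strand): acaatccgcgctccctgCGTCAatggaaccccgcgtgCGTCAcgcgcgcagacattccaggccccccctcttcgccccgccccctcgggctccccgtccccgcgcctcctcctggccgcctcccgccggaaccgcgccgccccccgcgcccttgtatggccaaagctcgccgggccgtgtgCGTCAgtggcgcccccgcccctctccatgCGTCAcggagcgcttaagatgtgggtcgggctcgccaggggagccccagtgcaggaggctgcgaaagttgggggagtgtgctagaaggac
Dusp1 (chr17:26508423-26508722, minus strand): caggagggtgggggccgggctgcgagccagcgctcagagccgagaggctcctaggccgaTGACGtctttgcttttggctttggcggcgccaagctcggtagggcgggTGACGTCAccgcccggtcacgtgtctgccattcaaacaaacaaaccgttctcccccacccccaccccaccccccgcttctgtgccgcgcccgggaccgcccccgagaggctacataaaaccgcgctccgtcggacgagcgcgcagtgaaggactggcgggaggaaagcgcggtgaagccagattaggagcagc
Fos (chr12:85473640-85473939, plus strand): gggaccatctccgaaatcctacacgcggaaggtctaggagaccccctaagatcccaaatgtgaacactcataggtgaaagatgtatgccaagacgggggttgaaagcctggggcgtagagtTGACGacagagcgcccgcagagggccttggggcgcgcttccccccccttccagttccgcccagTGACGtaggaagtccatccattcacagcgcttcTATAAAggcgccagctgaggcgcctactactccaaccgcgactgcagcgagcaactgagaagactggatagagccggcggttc
Ccn1 (chr3:145649936-145650235, minus strand): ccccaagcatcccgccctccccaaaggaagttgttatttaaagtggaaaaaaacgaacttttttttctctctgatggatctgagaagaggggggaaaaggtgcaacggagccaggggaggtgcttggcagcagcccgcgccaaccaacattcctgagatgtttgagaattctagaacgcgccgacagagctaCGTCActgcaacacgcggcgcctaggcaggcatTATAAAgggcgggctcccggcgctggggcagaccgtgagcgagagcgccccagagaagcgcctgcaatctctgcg

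TGACG, searched on both strands, occurred 4 times in the Nr4a1 window, 3 times in that of Dusp1, 2 times in that of Fos and 1 time in that of Ccn1. In Dusp1 the full element gave a match on each strand, and these overlap. TGACG was present in 22 of the 35 member windows (62.9%), which belong to 26 genes with some alternative starts, against 20.8% of all 32851 windows. The full TGACGTCA was in 2 member windows, 5.71%, those of Dusp1 and Maff, against 1.79% of all. The member windows were richer in G and C, with a median of 63.7%, against 52.7% in all windows, and the part of this in the counts was not tested. TATAAA was in 11.4% of member windows and 13.6% of all windows, and the AP-1 site TGANTCA in 2.86% and 7.81%. The CArG box, which binds serum response factor, was in 17.1% of member windows, against 1.63% of all. These came from 3 of the 26 genes, Dusp5, Egr2 and Zfp36, and most were Egr2 windows, several of which overlap. Sites farther than 250 bases before the start lay outside the windows. Members without a window, Egr1 among them, were not searched, so no match here does not mean that a gene has no such site. Ccn1 holds both TGACG and TATAAA, and a match of letters is a description and not a bound site.

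Other genes of the same response were taken from lists that hold no member. Of 24 further early response genes 22 were tested, and edgeR called 0 for treatment: 16 had a positive and 6 a negative fold change of DOX over PBS, with a median of 0.23. Gadd45g, a stress-induced growth inhibitor with the highest mean of the list, stood at 121 ± 23.2 CPM in DOX (SD, n = 5) and 92.5 ± 13.0 CPM in PBS (SD, n = 3). Ptgs2, which encodes the inducible cyclooxygenase, had 0.929 to 2.56 CPM in DOX and 0.368 to 0.882 CPM in PBS. Every DOX library lay above every PBS library for Ptgs2, against 1.24% of all genes tested. Its log2 fold change of DOX over PBS was 1.53 ± 0.55 (SE; adjusted p = 0.995 in edgeR). The clock gene Per1 had a value of 0.50 ± 0.20 and the synaptic early gene Arc, at 0.909 ± 0.265 CPM in DOX (SD, n = 5) and 2.36 ± 1.37 CPM in PBS (SD, n = 3), a value of -1.42 ± 0.47 (SE; adjusted p = 0.995 for both in edgeR). For batch, 18 of the 22 had a negative fold change of batch 2 over batch 1, with a median of -0.54, and 0 passed.

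Genes upstream of the response were also listed. Of 17 kinases and factors that carry signals to these promoters, 8 had a negative batch fold change, with a median of 0.04, and 0 passed for batch or treatment in edgeR. For treatment 14 of the 17 had a negative fold change, with a median of -0.09. Srf, which encodes serum response factor, had 5.03, 6.03, 7.26, 5.54 and 6.71 CPM in DOX replicates 1 to 5, against 7.47, 8.53 and 15.1 CPM in PBS replicates 1 to 3, and every DOX library lay below every PBS library, against 1.19% of all genes tested. Its log2 fold change was -0.71 ± 0.22 (SE; adjusted p = 0.995 in edgeR). Of 9 genes of ERK feedback 4 had a positive and 5 a negative fold change for treatment, with a median of -0.01. Spred1, the most abundant of them, had 70.8 ± 14.3 CPM in DOX (SD, n = 5) and 82.4 ± 2.48 CPM in PBS (SD, n = 3). Etv4, an ETS factor near the limit of detection, had 9 to 63 counts in the DOX libraries and 0, 3 and 2 counts in the PBS libraries (adjusted p = 0.995 in edgeR). Of 10 tested AP-1 partners outside the 33 genes 4 had a positive and 6 a negative fold change for treatment, with a median of -0.04, and Atf2 had 46.9 ± 4.00 CPM in DOX (SD, n = 5) and 54.8 ± 4.48 CPM in PBS (SD, n = 3).

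Heat shock genes that are known to be induced with immediate early genes during tissue digestion also had higher sums in batch 1. The 12 genes summed to 1111 to 1432 CPM in batch 2 and 1484 to 1517 CPM in batch 1. For batch 10 of the 12 had a negative fold change, against 51.6% of all genes tested, with a median of -0.41, and 0 passed in edgeR. For treatment 8 of the 12 had a positive one, against 53% of all genes tested, with a median of 0.14, and 0 passed. Hspa1a, the inducible HSP70 gene, had 16.3, 9.85, 2.19, 5.12 and 4.61 CPM in DOX replicates 1 to 5, against 5.65, 1.06 and 1.92 CPM in PBS replicates 1 to 3. Every DOX library lay above the PBS libraries of its own batch, against 3.36% of all genes tested, and the groups overlapped across batches. The log2 fold change of DOX over PBS for Hspa1a was 1.33 ± 0.34 (SE; adjusted p = 0.995 in edgeR). Hspa8, the constitutive member with the highest mean, had 516 ± 48.4 CPM in DOX (SD, n = 5) and 415 ± 107 CPM in PBS (SD, n = 3). It made up a large part of the sums, which therefore say little about the inducible genes. The part of tissue digestion in these values was not tested.

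Other features of the libraries moved with the batches. Of the 10 osteoblast markers 9 had a positive and 1 a negative fold change of batch 2 over batch 1, with a median of 0.40, and 0 passed in edgeR. Bglap and Bglap2 were higher in every batch 2 library than in every batch 1 library, against 4.89% of all genes tested. The batches overlapped for the other osteoblast markers. The 6 erythroid markers summed to 2.32 to 10.6 CPM in batch 2 and 34.3 to 143 CPM in batch 1. Of the 6, 4 passed as lower in batch 2 in edgeR, against 0.0585% of all genes tested. The 6 endothelial markers summed to 0.60 to 1.56 CPM in batch 2 and 3.60 to 16.2 CPM in batch 1, with Cdh5 at 0 in DOX replicate 3 and PBS replicates 2 and 3. The 5 reticular stromal markers, all of them tested, summed to 121 to 454 CPM in batch 2 and 454 to 747 CPM in batch 1. The 5 monocyte and macrophage markers in the table summed to 4.87 to 7.36 CPM in batch 2 and 6.20 to 9.35 CPM in batch 1, the 7 neutrophil markers to 0.538 to 122 and 7.81 to 36.6, and the 4 B cell markers to 3.64 to 16.1 and 0.248 to 2.73. Of the 7 neutrophil markers 5 had a negative batch fold change, with a median of -2.91 over the 7, and 0 passed. The most abundant, Mpo and Elane, had positive ones (2.26 and 4.82). The 4 T and NK cell markers stayed under 4 CPM in sum, the osteoclast markers, nearly all Ctsk, ran from 278 to 427 CPM, and the fibroblast, tendon and pericyte markers from 321 to 586 CPM. Mitochondrial transcripts took 0.560% to 1.21% of counts in batch 2 and 0.656% to 1.77% in batch 1. The part of these features in the batch difference of the immediate early genes was not tested.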

How the data were processed

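RNA-seq counts of sorted osteoblasts were deposited by the authors as unscaled reads per gene symbol, a column for each library. The submitters' processing notes name, in no order, STAR 2.7.9a, featureCounts 2.0.1, Trim Galore 0.6.6, FastQC 0.11.5, SAMtools 1.17, MultiQC 1.7 and the build GRCm39. Which annotation and strand setting were used is not stated there. The lowest gene total was 10 counts.

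EdgeR 4.0.16 under R 4.3.3 gave the main test: TMM scaling, filterByExpr, quasi-likelihood with batch and group as terms, two-sided, Benjamini-Hochberg adjustment over 15373 genes, threshold 0.05. Alternatives used DESeq2 1.42.0 and limma 3.58.1. Standard errors of edgeR fold changes are the fold change over the root of its F statistic. The scripts were tested on simulated data. Plots used Python 3.11.15 with matplotlib 3.10.9. Exon lengths came from GENCODE models of an earlier build. With no molecular identifiers named, the depth of 39419027 to 44299591 counts per library bounds counting error only, and p-values measure the spread between libraries. All 33 members are named, with full statistics for the 8 of smallest p in the treatment term. From each pathway list the gene of highest mean and up to 3 with an unadjusted p under 0.05 are named; 1 such gene is not reported here. DESeq2 and limma-voom for the batch calls, all alternatives for the batch counts over all genes and the batch fold changes, and the within-batch counts under other readings of DOX replicate 1 were chosen after seeing the data. Members and lists were chosen with earlier results of these data known.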

Additional observations from a re-analysis of the deposited data

Results flagged for a closer look

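One value stood apart from its group. Nr4a3, which encodes the third NR4A receptor, had 1.56 CPM in DOX replicate 1, against 0.0462 to 0.434 CPM in the other 4 DOX libraries, a gap of 0.743 of the group's range, above Dixon's 95% critical value of 0.71 for 5 samples. Chance gives such a gap in about 1 of 20 groups, and 32 genes were examined. DOX replicate 1 is the library whose title and treatment tag differ, and it also held the highest value of 17 of the 32 genes.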

How the results depend on the processing

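For treatment, no alternative called a member. DESeq2 called 26 genes and batch 1 alone 96, against 0 in edgeR; at an unadjusted p under 0.05 DESeq2 listed 8 of 33 members and 902 of 21154 genes, limma-voom 6 of 32 and 1565 of 15373, and edgeR 3 of 32 and 571 of 15373. For batch, where 2 members passed, 4 passed without a filter and 4 with a stricter one, 1 with DOX replicate 1 as PBS, 14 in DESeq2, 1 in limma-voom, and 0 with DOX replicate 1 and PBS replicate 1 both left out; leaving out 1 library gave 0 to 12. Of all genes 14 passed for batch, 5 with DOX replicate 1 as PBS, 518 in DESeq2, 0 with both left out, and 0 to 938 without 1 library. The members' median batch fold change of -0.75 was -0.38 with both left out and -0.88 to -0.50 without 1 library. Members called for the interaction numbered 0 to 1 without 1 library (58 genes without DOX replicate 2, 10 without DOX replicate 1, 0 in the other fits), and without PBS replicate 1 it could not be fitted. The cause was not tested.

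Same-numbered replicates had correlations of 0.248, -0.054 and 0.245, and those of unlike numbers ran from -0.328 to 0.178. By batch, DOX and PBS pairs of the same batch ran from 0.121 to 0.248, and pairs across batches from -0.328 to -0.054. These few values do not decide whether the numbers pair the samples. With a replicate block in place of the batch term, the median treatment fold change was 0.27 and no member passed. DOX and PBS libraries that shared a number were not all of the same batch, so the batch difference could enter this treatment term. DOX libraries with no PBS library of the same number did not inform it. The block values therefore cannot separate treatment from batch. Under the replicate block the sign turned for Fosl2 (0.091), Klf4 (0.047) and Nr4a2 (0.018). In batch 1 alone it turned for Fosl2 (0.033), Klf4 (0.93), Klf6 (-0.11), Klf10 (-0.17), Nr4a2 (0.55), Ier5 (-0.18), Ier5l (-0.93), Ccn2 (-1.37) and Rhob (-0.21). With DOX replicate 1 as PBS it turned for Nr4a3 (-0.48), Ier2 (-0.0036), Ier5 (-0.068), Csrnp1 (-0.028) and Dusp2 (-0.17), and with no batch term for Ier5l (-0.10) and Ccn2 (-0.33). Without 1 library the treatment fold change ran from -0.12 to 0.089 for Fosl2, -0.52 to 0.30 for Klf4, -0.017 to 0.12 for Klf6, -0.051 to 0.28 for Klf10, -0.47 to 0.024 for Nr4a2, -0.0016 to 0.24 for Ier5, -0.33 to 0.88 for Ier5l, -0.024 to 0.34 for Dusp2, -0.41 to 1.05 for Ccn2 and -0.046 to 0.22 for Rhob.

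The batch fold change turned for Maff with DOX replicate 1 as PBS (0.017), Nr4a2 with a stricter filter (-0.0074) and Dusp5 in limma-voom (0.00029). With both libraries left out it turned for Klf2 (-0.11), Klf4 (-0.21), Nr4a2 (-0.29), Nr4a3 (0.36), Ier5 (0.19) and Ccn1 (-0.11). Without 1 library it ran from -0.12 to 0.037 for Maff, -0.0095 to 0.16 for Klf2, -0.16 to 0.48 for Klf4, -0.33 to 0.15 for Nr4a2, -2.4 to 0.094 for Nr4a3 and -0.47 to 0.39 for Dusp5.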
